A study of Mus musculus with 2 samples.

Results

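Genes of the regulator of G protein signalling (RGS) family were followed in primordial germ cells (PGCs) with and without over-expression (OE) of Klf9. The members were 10 genes chosen by symbol, with earlier results of these data known, out of 23320 gene symbols present in both libraries. They were Rgs2, Rgs3, Rgs4, Rgs5, Rgs10, Rgs12, Rgs14, Rgs16, Rgs17 and Rgs19. All 10 were found as a single locus in each library and were above 0 in both, and 6 of them reached an FPKM of at least 1 in at least 1 library. FPKM counts fragments relative to transcript length and to the mapped reads of the library, so levels of different genes can be compared. PGCs with intense GFP were sorted from the genital ridges of E13.5 embryos that carried the Oct4-deltaPE-GFP transgene, a germ cell reporter. They were infected at MOI 5 with lentivirus, either a CSII-EF vector with the coding region of Klf9 or the control vector, and their RNA was taken after 1 day on gelatin. The labels place bFGF in the medium, whereas the study describes this culture as without it. There was 1 library per condition, so no difference below has a replicate check or a p-value. Which embryos or wells were pooled is not given in the sources used here.

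RGS proteins switch off heterotrimeric G proteins. A receptor loads a G alpha subunit with GTP, and the RGS domain speeds the hydrolysis of that GTP, so that G alpha i no longer inhibits adenylate cyclase and G alpha q no longer activates phospholipase C beta. The small proteins of the R4 subfamily (Rgs2, Rgs3, Rgs4, Rgs5 and Rgs16 here) are little more than the RGS domain. Rgs12 and Rgs14 of the R12 subfamily carry additional domains that bind Ras-family proteins and inactive G alpha i, while Rgs10 of the same subfamily is small. The RZ subfamily (Rgs17 and Rgs19 here) is named for its action on G alpha z. Many RGS genes are themselves induced by signalling, and Rgs5 is widely used as a marker of pericytes.

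Klf9 itself had an FPKM of 2.27 in control PGCs and 80.8 in Klf9-OE PGCs. Cufflinks gives each value a 95% interval, and where a gene has 1 transcript its width returns how many reads were counted. By this measure 1.22 reads stood behind the Klf9-OE library for each control read (median over 4305 genes). Even numbers made up 89.9% of 1215 Klf9-OE values and 40.1% of 1433 control values that rested on 1 to 9 reads. Intervals are therefore also given below with Klf9-OE reads counted in pairs, which widens them. The germ cell markers Ddx4 (FPKM 299.9 and 292 in control and Klf9-OE PGCs), Dazl (351 and 378) and Pou5f1 (387 and 277) were abundant in both libraries. Of 10 germ cell markers, 8 were lower with separate intervals, compared with 20.2% of genes with an FPKM of at least 1, and 1 (Dazl) was higher, compared with 14.8%. With reads in pairs the 8 lower calls remained and that of Dazl was lost. The summed FPKM of these markers was 1569 and 1318. Of 9 gonad somatic markers, 4 were higher (Gata4, Amh, Wt1 and Star, the last listed at 0 in the control library) and Sox9 was lower (2.04 and 1.09). Their sums were 25.1 and 32.8, and the call of Gata4 was lost with pairs. Of 7 blood and macrophage markers, Csf1r was higher (0.307 and 1.18) and Lyz2 was lower (listed at 0 in the Klf9-OE library), with sums of 8.78 and 10.3. Beside both lists, 11.2% of all genes above 0 in at least 1 library were higher and 14.4% lower with separate intervals. An interval at 0 has no width, so the calls of Star and Lyz2 rest on the bound of 1 library. Widening could not change that of Lyz2. In such bulk samples, fewer cells of a type and less RNA per cell cannot be told apart.

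Rgs12 and Rgs5 were the members that passed one of the rules used below, and Klf9 is a zinc finger factor that binds GC-rich boxes, so the RefSeq promoters of these 2 genes are shown. The 250 bases before each annotated start are printed from 5′ to 3′ on the coding strand of GRCm38.p6, the build also called mm10. Capitals mark GGGCGG (a GC box) and CACCC (a box bound by Krüppel-like factors) on either strand, where a base may belong to both motifs. Rgs12 has 2 annotated starts 49.6 kb apart on chromosome 5, and Rgs5 has 1 on chromosome 1.

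Rgs12, first start (chr5:34949198-34949447, plus strand): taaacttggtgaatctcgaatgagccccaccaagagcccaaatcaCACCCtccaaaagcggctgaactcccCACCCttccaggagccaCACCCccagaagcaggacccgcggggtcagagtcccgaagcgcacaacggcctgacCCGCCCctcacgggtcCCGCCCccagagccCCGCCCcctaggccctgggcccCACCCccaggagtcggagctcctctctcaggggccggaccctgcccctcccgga

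Rgs12, second start (chr5:34998828-34999077, plus strand): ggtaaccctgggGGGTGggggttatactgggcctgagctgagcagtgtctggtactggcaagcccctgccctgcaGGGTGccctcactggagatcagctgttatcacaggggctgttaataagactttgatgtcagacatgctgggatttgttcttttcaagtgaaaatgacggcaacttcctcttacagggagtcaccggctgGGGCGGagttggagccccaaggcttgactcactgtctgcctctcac

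Rgs5 (chr1:169655251-169655500, plus strand): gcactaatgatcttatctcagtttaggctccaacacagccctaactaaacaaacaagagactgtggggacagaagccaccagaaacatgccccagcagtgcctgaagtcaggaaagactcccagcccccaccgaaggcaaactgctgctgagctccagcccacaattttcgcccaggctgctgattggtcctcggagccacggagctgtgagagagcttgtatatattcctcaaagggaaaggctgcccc

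The printed bases before the first start of Rgs12 held 3 GC boxes and 4 CACCC boxes, those before the second start held 1 and 2, and those of Rgs5 held neither. Over the whole windows, which also take in the first 50 transcribed bases, 13 promoters of 9 members were found, and none was listed for Rgs14. A GC box was present in 9 of these 13 windows, compared with 35.7% of 32851 windows of all genes, and by gene in 7 of 9 members. The Rgs19 windows at 181693928 to 181694227 and 181693761 to 181694060 overlap, so boxes in their shared stretch are counted in each. CACCC was present in 12 of 13, compared with 57.5%, and TGACG, the core of the cAMP response element, in 3 of 13, compared with 20.8%. The windows with TGACG were those of Rgs2, of Rgs4 and of the second start of Rgs12. The guanine and cytosine content of the 13 windows ranged from 49.7% to 76%, compared with a median of 52.7% over all windows, and lay below that median only for Rgs5 and the first start of Rgs3. These matches describe the letters, and nothing here measured binding.

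The R12 subfamily held the highest member and the only member with separate intervals. Rgs12 (chromosome 5, 34949448 to 35039195 in the control file) was measured at an FPKM of 14.2 in the control library (interval 13.3 to 15.2) and at 11.1 in the Klf9-OE library (10.4 to 11.8). The control value lay above the Klf9-OE value with a gap between the intervals. The ratio of Klf9-OE to control was 0.780, with a 95% interval of 0.713 to 0.853 that combines the errors of estimation in both libraries, and of 0.700 to 0.869 with reads in pairs. Separate, lower intervals were found for 14.4% of 18737 genes, for 20.2% of 12560 genes with an FPKM of at least 1 in at least 1 library, and for 22.1% of 2272 genes with a control FPKM of 10 to 20 like that of Rgs12. Hence 1 such member among 10, or among the 6 at that level, is no more than the background share. Separate, higher intervals were found for no member, compared with 11.2%, 14.8% and 13.9% of the same groups of genes. Among genes above 0 and below 1 in both libraries, where 4 members lie, the shares were 3.42% higher and 2.07% lower.

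The gene model and the read numbers of Rgs12 move with this difference, and their part in it was not tested. The Rgs12 locus ended at 35033593 in the Klf9-OE file instead of 35039195, and it rested on a transcript assembled from the reads in the control library only. All 9 other members had the same bounds in both files. Among genes with an FPKM of at least 1, separate, lower intervals were found for 28.7% of 2071 genes assembled in the control library only. They were found for 22.8% of 3430 genes whose bounds differed between the files (17.4% higher) and for 19.2% of 9130 genes with equal bounds. The share that was higher was not calculated for genes assembled in the control library only or for those with equal bounds. In addition, the read numbers that the intervals return for Rgs12 (944 and 1057) gave a ratio of 0.917 after correction for depth. Such numbers are approximate for a gene with several transcript starts. Of 10 germ cell markers, 8 were lower with separate intervals, compared with 20.2% of genes with an FPKM of at least 1. Whether the Rgs12 value is tied to theirs was not tested.

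Rgs10 (chromosome 7, 128373625 to 128418172), a small GTPase-activating protein for G alpha i best known from microglia, had an FPKM of 3.89 in control PGCs (2.71 to 5.06) and 4.26 in Klf9-OE PGCs (3.39 to 5.13). Rgs14 (chromosome 13, 55369732 to 55384687), a scaffold that joins G alpha i to Ras and Rap signalling, had 0.439 (0.266 to 0.611) and 0.597 (0.348 to 0.846). For both, the intervals of the libraries overlapped widely. The ratio was 1.10 (0.761 to 1.58) for Rgs10 and 1.36 (0.767 to 2.41) for Rgs14, so both intervals held an increase of 1.5-fold as well as no difference. Both genes also had an assembled transcript in 1 library and not in the other, in the control library for Rgs10 and in the Klf9-OE library for Rgs14. Summed over the 3 genes, R12 transcripts had an FPKM of 18.6 (17.1 to 20.1) and 15.95 (14.8 to 17.1), a ratio of 0.860 (0.772 to 0.957). Rgs12 supplied most of this sum in each library.

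**Figure D1:**
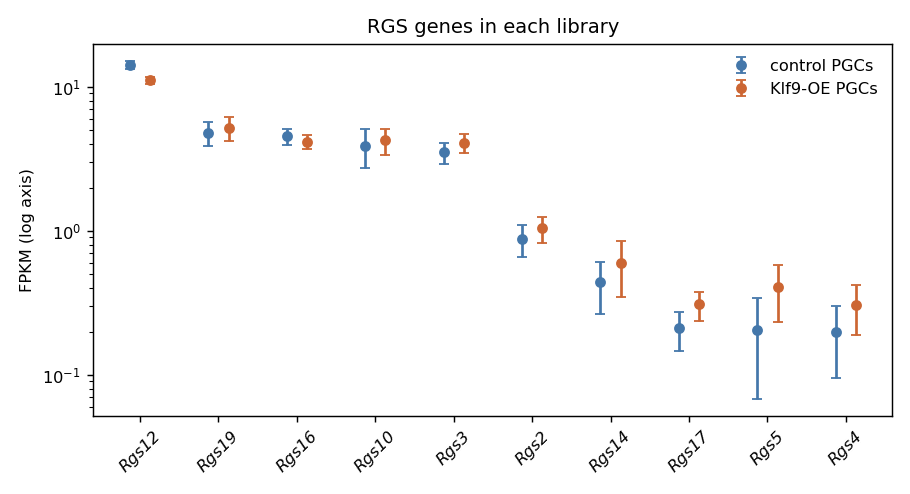
FPKM on a log axis of the 10 RGS genes in the control library (blue) and the Klf9-OE library (orange), ordered by the control value, with 1 library per condition. Bars are the Cufflinks 95% interval within a library, and the bars are separate only for Rgs12, at 14.2 and 11.1.

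Among the R4 genes, Rgs16 and Rgs3 were the best expressed. Rgs16 (chromosome 1, 153740353 to 153745468), a regulator of both G alpha i and G alpha q, had an FPKM of 4.53 in control PGCs (3.97 to 5.09) and 4.16 in Klf9-OE PGCs (3.68 to 4.65). Rgs3 (chromosome 4, 62559847 to 62703019), whose longer forms carry extra protein-binding domains, had 3.51 (2.92 to 4.10) and 4.08 (3.49 to 4.67). The 2 genes differed between the libraries in opposite directions, each within overlapping intervals. The ratio was 0.918 (0.775 to 1.09) for Rgs16 and 1.16 (0.931 to 1.45) for Rgs3. Rgs16 was the most precisely measured member after Rgs12, with 260.2 and 294.9 reads returned by the intervals, and with reads in pairs its ratio interval was 0.747 to 1.13.

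Rgs2 (chromosome 1, 143999338 to 144004149), which prefers G alpha q and also inhibits some adenylate cyclases, had an FPKM of 0.880 in control PGCs (0.664 to 1.10) and 1.04 in Klf9-OE PGCs (0.829 to 1.25). The intervals overlapped, and the ratio was 1.18 (0.859 to 1.62). Rgs4 (chromosome 1, 169741477 to 169747642), an inhibitor of G alpha i and G alpha q signalling best studied in brain and heart, had 0.199 (0.0953 to 0.303) and 0.304 (0.189 to 0.420), a ratio of 1.53 (0.804 to 2.91). These values rest on 14.7 reads in the control library and 28 in the Klf9-OE library, or 14 pairs.

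Rgs5 (chromosome 1, 169655501 to 169693526) was the only member with a ratio of at least 2. Its FPKM was 0.204 in control PGCs (0.0679 to 0.339) and 0.408 in Klf9-OE PGCs (0.234 to 0.582), from 9 and 22 reads, or 11 pairs in the latter. The intervals overlapped, and the ratio of 2.003, just past the threshold, had an interval of 0.908 to 4.42, or of 0.815 to 4.92 with reads in pairs. A ratio of at least 2 was found for 9.82% of 18742 genes, and for 15.8% of 4773 genes that were above 0 and below 1 in both libraries, so 1 member in 10 is near the background share. No member was lower by 2-fold, compared with 9.43% of all genes and 10.1% of these low genes. None of the 6 members with an FPKM of at least 1 differed by 2-fold in either direction, compared with 3.93% higher and 3.79% lower of 12565 genes at that level.

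Since Rgs5 marks pericytes, the 8 pericyte and smooth muscle markers are given beside it. All 8 were above 0 in both libraries, and their summed FPKM was 21.5 in control PGCs and 21.1 in Klf9-OE PGCs. Pdgfrb, a pericyte receptor, had 1.06 and 1.89, and Abcc9, a potassium channel subunit of the same cells, had 0.208 and 0.415, each with separate intervals. Kcnj8, the pore that pairs with Abcc9, had 0.0183 and 0.0900 with intervals that overlapped. In the opposite direction, Notch3 had 1.79 and 1.10 and Myh11, a smooth muscle myosin, had 1.18 and 0.521, both with separate intervals. Of 8 endothelial markers, Pecam1 (16.8 and 24.2) and Cdh5 (1.995 and 5.09) were higher and Tek (0.735 and 0.439) was lower with separate intervals, the last only without pairs. Beside both lists, 11.2% of all genes above 0 in at least 1 library were higher and 14.4% lower with separate intervals. The summed FPKM of the endothelial list was 28.8 and 41.3, most of it from Pecam1 in each library. Emcn was listed at 0 in the Klf9-OE library. The part of such cells in the Rgs5 values was not tested.

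Neither RZ gene had separate intervals. Rgs19 (chromosome 2, 181688419 to 181693977), also known as GAIP, a regulator of G alpha i that binds the adaptor Gipc1, had an FPKM of 4.80 in control PGCs (3.90 to 5.69) and 5.2 in Klf9-OE PGCs (4.22 to 6.18). The ratio was 1.08 (0.832 to 1.41). Rgs17 (chromosome 10, 5825664 to 5922400) had 0.211 (0.146 to 0.275) and 0.308 (0.238 to 0.379). Its intervals overlapped, while the interval of its ratio, 1.46, ran from just under 1 to 2.14, and from 0.938 to 2.28 with reads in pairs.

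**Figure D2:**
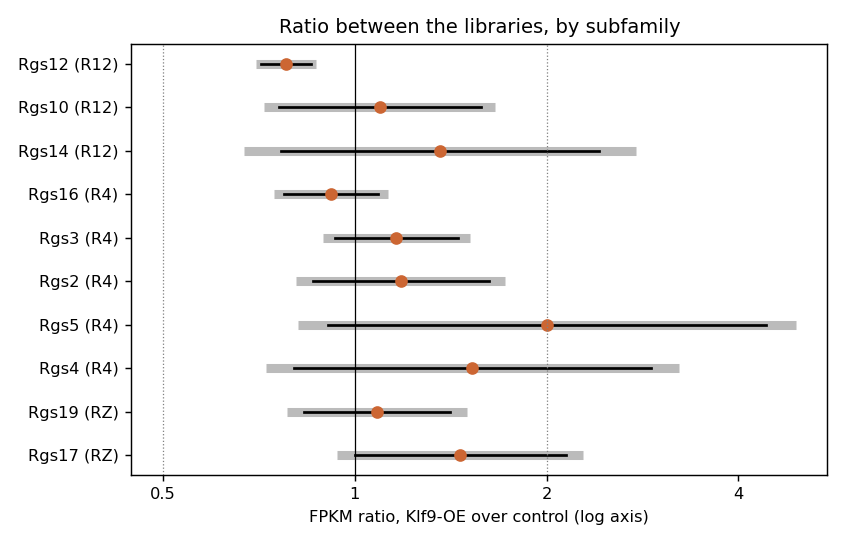
Ratio of FPKM in Klf9-OE PGCs to control PGCs on a log axis for the 10 RGS genes, grouped by subfamily, with 1 library per condition. Black lines are the 95% interval from the errors of estimation, grey bars the interval with Klf9-OE reads counted in pairs, and dotted lines mark 0.5 and 2. Only the bars of Rgs12 (0.780) lie wholly on one side of 1, and the point of Rgs5 lies at 2.003 with bars that cross 1.

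Taken as a set, 8 of the 10 members were higher and 2 (Rgs12 and Rgs16) were lower in Klf9-OE PGCs, whereas 48.0% of all genes above 0 and 55.5% of genes above 0 and below 1 in both libraries were higher. The median log2 fold change of the members, calculated as log2(FPKM + 0.1) in Klf9-OE minus control, was 0.21, compared with -0.015 over 18742 genes. For the 6 members with an FPKM of at least 1 in at least 1 library it was 0.12. The 12565 genes at that level had a median of -0.026, and 45.8% of them were higher. Of the 8 higher members, each had overlapping intervals. The direction was not shared by the rest of the family. The 8 other RGS genes above 0 in at least 1 library had a median of -0.39, and only 1 of them reached an FPKM of 1. Their summed FPKM had a ratio of 0.657 (0.442 to 0.977). With the sums of FPKM set equal the median of the members was 0.27, and all 10 kept their direction.

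Steps with separate intervals in both libraries split the members into 3 tiers. Rgs12 was highest, 2.97-fold above the next member in control PGCs and 2.13-fold in Klf9-OE PGCs, with separate intervals in each. Rgs19, Rgs16, Rgs10 and Rgs3 formed the second tier, from 3.51 to 4.80 in the control library and from 4.08 to 5.2 in the Klf9-OE library, and no neighbours within it had separate intervals. Rgs3 was 3.99-fold above Rgs2 in control PGCs and 3.92-fold in Klf9-OE PGCs, again with separate intervals. Below it came Rgs2, Rgs14 and the lowest 3, Rgs17, Rgs5 and Rgs4, at 0.199 to 0.211 in the control library and 0.304 to 0.408 in the Klf9-OE library with intervals that overlapped. The step from Rgs2 to Rgs14 was separate in the control library and overlapped in the Klf9-OE library. Rgs12 stood at percentile 70.3 of all genes above 0 in at least 1 library in control PGCs and at 66.1 in Klf9-OE PGCs, and Rgs4 at 20.5 and 23.6.

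The 5 highest members supplied 94.1% of the summed FPKM of the family members in control PGCs and 91.6% in Klf9-OE PGCs. The share of Rgs12 was 43.3% and 35.3%, that of the R4 genes 28.4% and 31.8%, and that of the RZ genes 15.2% and 17.5%. The sum over all 10 was 32.9 (30.9 to 34.8) and 31.5 (29.7 to 33.2), a ratio of 0.956 (0.882 to 1.04). Without Rgs12 it was 18.7 (16.9 to 20.4) and 20.4 (18.8 to 21.9), a ratio of 1.09 (0.968 to 1.23).

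**Figure D3:**
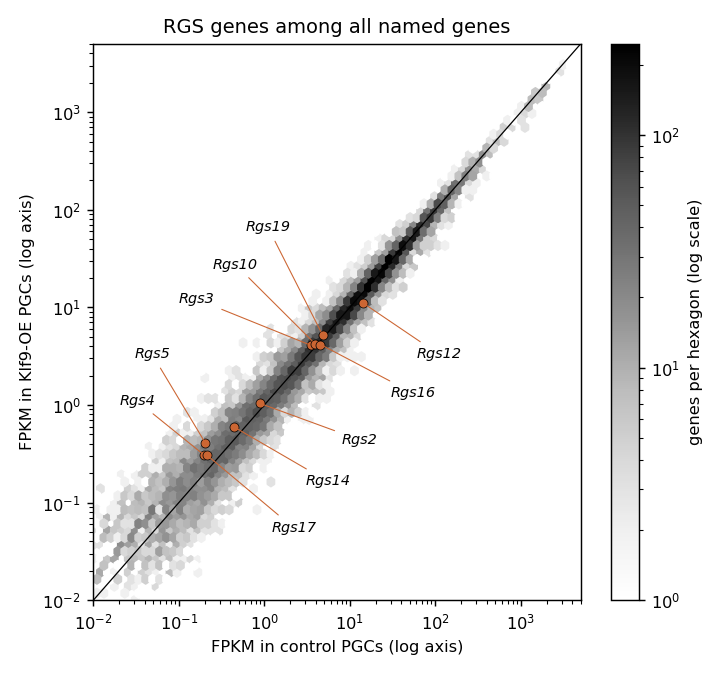
FPKM in control PGCs against FPKM in Klf9-OE PGCs, both on log axes, for named genes above 0 in both libraries (grey hexagons, darker with more genes) and for the 10 RGS genes (orange), with a line of equality. Rgs12 and Rgs16 lie below the line, the other 8 lie above it, and all of them lie within the cloud of other genes.

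Of 11 other genes of the family, 8 were above 0 in at least 1 library and Rgs13, Rgs18 and Rgs21 were listed at 0 in both. Only Rgs9, a member of the R7 subfamily known from photoreceptors and striatum, reached an FPKM of 1, at 1.07 (0.901 to 1.23) and 0.874 (0.659 to 1.09), with overlapping intervals. Of the 8 above 0, none was higher and 2 were lower with separate intervals, compared with 11.2% and 14.4% of all genes above 0 in at least 1 library. Among genes above 0 and below 1 in both libraries, which include Rgs8 but not Rgs1 or Rgs9, the shares were 3.42% and 2.07%. The 2 lower genes were Rgs8, at 0.376 (0.276 to 0.477) and 0.170 (0.110 to 0.230), and Rgs1, at 0.161 (0.0170 to 0.305) in control PGCs and listed at 0 in Klf9-OE PGCs, with 5 reads behind the control value. Both were named after their values were seen. A value of 0 has an interval without width, so any control bound above 0 would have given Rgs1 this call. Counting reads in pairs could not change it. Rgs8 and the member Rgs16 are neighbours on chromosome 1, 42.7 kb apart, yet the ratio was 0.452 (0.290 to 0.705) for Rgs8 and 0.918 for Rgs16. Rgs5 and Rgs4 are also neighbours, 48.0 kb apart, with ratios of 2.003 and 1.53 that both rest on few reads. Rgs2 lies at the edge of a cluster with Rgs13, Rgs1, Rgs21 and Rgs18, which begins 135 kb away, and was the only gene of that cluster above 0 in both libraries.

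Some of the G alpha subunits on which these proteins act were more abundant than any member, while 8 of 12 genes of the i and q classes lay below Rgs12 in control PGCs. The summed FPKM of the G alpha i and q classes was 5.54 times that of the 10 members in control PGCs and 5.45 times in Klf9-OE PGCs. Of 8 genes of the i class, none was higher and 2 were lower with separate intervals. Both were among the 6 with an FPKM of at least 1, compared with 20.2% lower and 14.8% higher over all genes at that level. One was Gnaz, the G alpha z subunit, with a ratio of 0.809. The other was Gnat2, known as the transducin of cone photoreceptors, at 17.2 (15.7 to 18.6) and 13.6 (12.4 to 14.7). In the q class all 4 genes reached an FPKM of at least 1 and 2 were lower, compared with the same 20.2%. They were Gna14 at 2.64 (2.29 to 2.99) and 1.54 (1.30 to 1.78) and Gna11 at 28.2 (27.1 to 29.4) and 25.2 (24.3 to 26.2). The sum over the q class had a ratio of 0.891 (0.849 to 0.935). Among 4 genes of the s and 12/13 classes, 3 reached an FPKM of at least 1, again beside a share of 20.2% lower. Of these, Gna13 was lower, at 24.3 (23.0 to 25.6) and 21.7 (20.6 to 22.8), but not with Klf9-OE reads in pairs.

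None of these 3 classes held a gene that was higher with separate intervals. Gna15, a G alpha q class subunit of blood cells, passed the rule of 2-fold at 0.496 (0.292 to 0.700) and 1.01 (0.581 to 1.44), a ratio of 2.03 (1.13 to 3.67), with intervals that overlapped. In the opposite direction, Gnat1 of the i class passed it at 0.335 (0.170 to 0.501) and 0.149 (0.0526 to 0.244), a ratio of 0.443, with intervals that overlapped. Over all genes 9.82% were higher and 9.43% lower by this rule. Both genes were named after their values were seen. The phospholipase C beta genes, the effectors of G alpha q, had 1 of 4 higher, Plcb4, at 6.07 (5.57 to 6.56) and 7.18 (6.69 to 7.67), a call that was lost with reads in pairs. In this list 3 genes reached an FPKM of at least 1, where 14.8% of all genes were higher. None of 5 RGS partners had separate intervals, among them Gipc1, the partner of Rgs19, at 32.3 (30.4 to 34.1) and 33.8 (32.1 to 35.5), and Gnb5, the obligate partner of the R7 subfamily, at 3.73 (3.11 to 4.36) and 2.89 (2.45 to 3.32), where the interval of the ratio was 0.617 to 0.968 although the intervals of the libraries overlapped.

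Of 9 proteins with an RGS domain outside the family, 2 were higher and 2 were lower, near the shares of 14.8% and 20.2% over genes with an FPKM of at least 1. Arhgef11, an exchange factor that links G alpha 12/13 to RhoA, had an FPKM of 22.8 (21.7 to 24.0) with the control vector and 42.5 (40.5 to 44.6) with Klf9, a ratio of 1.86 (1.74 to 1.99). Arhgef1, a relative with the same role, had 22.1 (20.8 to 23.5) and 29.6 (28.2 to 31.0). The lower ones were Axin2, a Wnt feedback inhibitor, at 8.90 (8.28 to 9.51) and 6.20 (5.77 to 6.63), and Axin1, a scaffold of the same pathway, at 34.7 (33.0 to 36.4) and 29.9 (28.5 to 31.2).

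Of 6 proteins that hold G alpha in its inactive form or exchange its nucleotide, Gpsm3 was higher, at 19.8 (18.0 to 21.6) and 27.7 (25.8 to 29.7), and Ric8, the older symbol of Ric8a, was lower, at 20.2 (18.9 to 21.6) and 17.7 (16.6 to 18.9), though not with reads in pairs. Gpsm3 carries the GoLoco motif that Rgs12 and Rgs14 also carry. Its ratio of 1.40 (1.25 to 1.57) stood opposite to that of Rgs12, while that of Rgs14 was 1.36 (0.767 to 2.41). Its relatives Gpsm1, at 0.910 (0.798 to 1.04), and Gpsm2, at 0.999 (0.924 to 1.08), had ratio intervals that held 1. Of 8 receptor kinases and arrestins, which silence the receptors upstream, Grk5 (10.1 and 13.8) and Grk4 (16.5 and 20.5) were higher and Arrb1 (2.54 and 1.78) and Adrbk2 (1.03 and 0.506) were lower, all with separate intervals. Adrbk2, with a ratio of 0.493, was also lower by at least 2-fold. Of these lists, 5 of 6 and 7 of 8 genes reached an FPKM of at least 1, where 14.8% of all genes were higher and 20.2% lower.

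**Figure D4:**
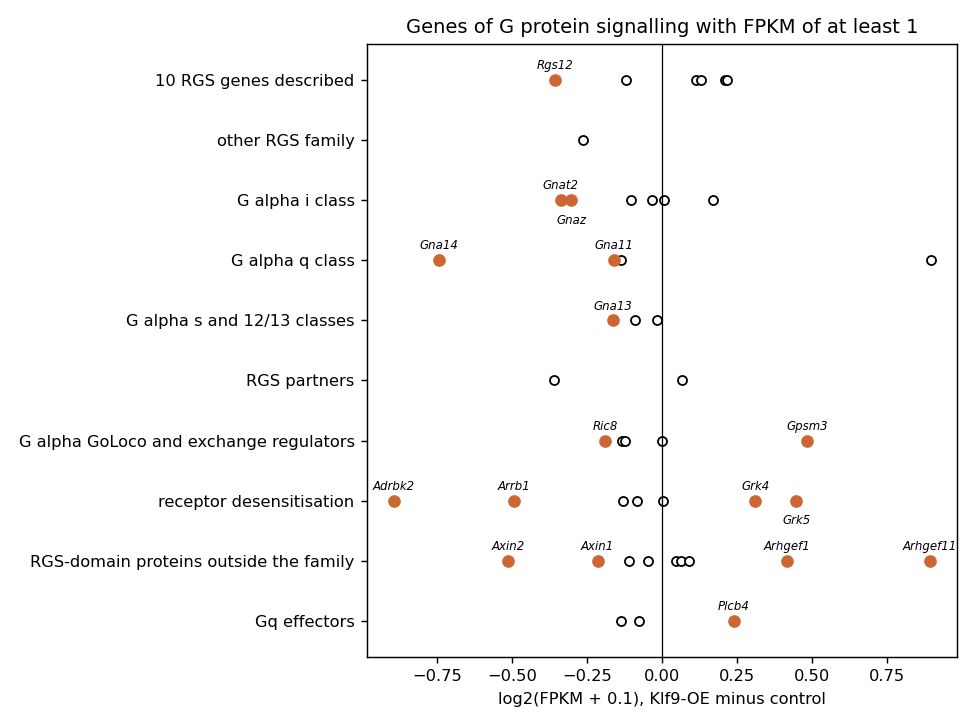
Log2 fold change, log2(FPKM + 0.1) in Klf9-OE minus control PGCs, of genes with an FPKM of at least 1 in at least 1 library, by group, with 1 library per condition. Filled orange points have separate Cufflinks intervals as deposited and open points do not. Rgs12 is the only filled point among the 6 members shown, and the filled points furthest from 0 are Arhgef11 at 0.89 and Adrbk2 at -0.89.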

How the data were processed

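RNA-seq of cultured PGCs was analysed for 1 control and 1 Klf9-OE library. The authors mapped single-end reads to mm10 and NCBI RefSeq genes with TopHat2 and Bowtie and deposited Cufflinks FPKM (the RPKM of the paper) with a 95% interval. Cufflinks also assembled transcripts in each library, so a gene's model can differ between files. Tool versions are not given in the sources used here.

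FPKM was summed over loci of a symbol. Differences were described by a ratio of at least 2 and by separate intervals, set beside the share of all genes. The interval of a ratio or sum combined the errors of both libraries, taken as independent and as 2 standard errors on each side. Reads behind a value were the square of 2 times the FPKM divided by the distance to the upper bound, and were called whole within 0.06. They cover counting error only. A pseudocount of 0.1 was added before taking log2, so changes of low genes are understated.

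The named genes were all members, Klf9, other RGS genes with an FPKM of at least 1, and listed pathway genes with an FPKM of at least 1 and separate intervals. Markers, RGS partners and members of the neighbouring clusters were named as context. Members and lists were chosen with earlier results of these data known. Steps were tested on simulated data. The work was done in Python 3.11.15 (pandas 2.3.3, numpy 2.4.6, matplotlib 3.10.9). Promoters came from RefSeq (GRCm38.p6).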

Additional observations from a re-analysis of the deposited data

Results flagged for a closer look

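A locus without a gene name was listed in the Klf9-OE library, and not in the control library, 5832 bases beyond the 3′ end of Rgs19 (chromosome 2, 181682409 to 181682587). It was outside the values compared above. Its FPKM was 15.9 (5.62 to 26.1), from about 9.59 reads. It lies within the bounds of the neighbouring gene Tcea2, and no other such locus was found within 10 kb of the members.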

How the results depend on the processing

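With 1 library per condition, nothing here measures the difference between cultures. No paired analysis was possible because each condition had 1 library, and for the same reason no library could be left out. The number of members at least 2-fold higher, 1 (Rgs5), was 0 for ratios of FPKM + 0.1 and 0 with an FPKM of at least 1 in at least 1 library, and it was 2 (Rgs5 and Rgs4) at 1.5-fold. The number with separate, lower intervals stayed at 1 (Rgs12) with the Klf9-OE interval widened and with both rescalings. The FPKM minimum and the largest locus of a symbol could not change it, because Rgs12 lies above that minimum and each member had 1 locus. That number was 0 among members with equal locus bounds, an alternative chosen after seeing the data, because that leaves Rgs12 out. The ratio of reads for Rgs12, also added afterwards, was -0.12 on the log2 scale instead of -0.36. The median log2 fold change lay between 0.11 (pseudocount of 1) and 0.27 (sums of FPKM set equal). Of 51 values of single members under alternatives, 50 moved by no more than their interval, the exception being that of Rgs12, and none changed sign. Many of these could not have changed sign. Another pseudocount keeps the sign of any difference, and the largest locus leaves each value as it was because each member had 1 locus. Among the other listed genes of G protein signalling, 3 of 18 calls of separate intervals were lost with Klf9-OE reads in pairs (Gna13, Ric8 and Plcb4), as were 3 of 23 calls of markers, an alternative added after seeing the data. The calls of Rgs1 and Lyz2 could not be lost this way, because a Klf9-OE value of 0 has no width to widen.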
